A study of Homo sapiens with 6 samples.

Results

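Aldehyde dehydrogenases oxidize aldehydes to carboxylic acids and pass the electrons to NAD+ or NADP+. The mRNAs of 10 of them were measured in MiaPaCa-2 cells after glucose withdrawal. The 10 genes were chosen by symbol, to cover cytosolic, microsomal and mitochondrial enzymes, and are 10 of the 60668 genes in the deposited table and of the 19 genes of the family read here. MiaPaCa-2 is an established line of pancreatic ductal adenocarcinoma (PDAC), obtained from a cell repository. The labels give no engineered allele, and the cells were grown for 48 h in 2.5 mM glucose (low glucose, 3 libraries) or in 25 mM glucose (control, 3 libraries). According to the methods, both media were DMEM with serum and penicillin/streptomycin, and the low-glucose medium was made from glucose-free DMEM. For the standard medium the methods also name 4 mM glutamine and plasmocin, given against mycoplasma. Any difference between the media other than glucose cannot be told apart from glucose. The treatment field of the labels repeats 2.5 mM for every sample, but the titles separate control from low glucose. The comparison asks how mRNAs respond when pancreatic cancer cells adapt to scarce glucose.

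The family works wherever reactive aldehydes arise. ALDH1A enzymes turn retinaldehyde into retinoic acid, the ligand of nuclear receptors, and their activity is widely used to mark stem-like cells in carcinomas. Mitochondrial members clear acetaldehyde and intermediates of amino acid breakdown. ALDH3 enzymes act on medium-chain and fatty aldehydes, among them products of lipid peroxidation, and ALDH3A1 can use NADP+, so that it yields NADPH. The study lists it with the NADPH-generating enzymes.

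The values are normalized counts, that is, reads divided by the authors' size factor for each library. The control libraries held 9741183 to 10190154 reads on genes and the low-glucose libraries 10595408 to 13733477, and more genes had a read in low glucose (22804 to 23259) than in control (21254 to 21706). Values of 1 condition are given below in the order of library depth, so that low glucose replicate 2 comes before replicate 1 and the library of 13733477 reads. The labels name only those 2 replicates in the table, and the other 4 libraries were put in their group because the column names form a run of 3 for each condition. The keratins KRT8 (36341 to 42135 reads per control library), KRT18 and KRT19 were abundant. KRT7 had 2 to 7 control reads and 8 to 12 low-glucose reads per library (not called). CDH1 and EPCAM had at most 3 reads, and the 3 acinar and 3 islet markers had 0 reads in all 6 libraries. Of 3 immune markers, PTPRC and CD3E had 0 reads and the macrophage marker CD68 had 1 to 15 control reads and 0 to 8 low-glucose reads per library (not called). Of 4 fibroblast and endothelial markers 3 were tested, and COL3A1 was lower, with 27 to 35 control reads and 4 to 19 low-glucose reads per library. COL1A1 (log2 fold change of 0.38) and PDGFRB (1.52) did not pass. KRT8, KRT18 and KRT19 were lower in low glucose (log2 fold changes of -1.01, -0.74 and -0.83) and VIM was higher (0.42). The part of this shift in the results below was not tested, and in bulk RNA fewer cells of a kind and less RNA per cell cannot be told apart.

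Of the 10 aldehyde dehydrogenases, 5 were higher in low glucose (ALDH1A3, ALDH2, ALDH3A1, ALDH3A2 and ALDH3B1), 4 were lower (ALDH1A1, ALDH1B1, ALDH7A1 and ALDH9A1), and ALDH4A1 did not pass the test. A gene passed when its limma adjusted p was under 0.05 over the 21101 genes tested. Over all of them, 14.7% were higher and 16.2% were lower. ALDH2 entered the test only through its few reads in low glucose, so the count of higher genes is 4 without it. In each of the 10 genes the libraries of the 2 conditions did not overlap, 6 in the higher direction (ALDH2 among them) and 4 in the lower direction. Such separation was found for 22.1% of all tested genes in the higher and for 21.8% in the lower direction. Because abundant genes are measured more precisely, the 7 members with a mean of at least 500 normalized counts were also set beside the 4663 genes at that level. Of the 7, 2 were higher and 4 lower, and of the 4663 genes 14.3% were higher and 42.1% lower. On the recovered reads, edgeR and DESeq2 each called 4 members higher and 4 lower, with ALDH2 not tested by edgeR and without an adjusted p in DESeq2. Over all genes, edgeR called 20.9% higher and 21.9% lower, and DESeq2 13.7% and 17.5%. Over the 10 members the median log2 fold change was 0.23, against 0.05 over all genes tested. Without ALDH2 the median was the value of ALDH4A1, 0.11.

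**Figure D1:**
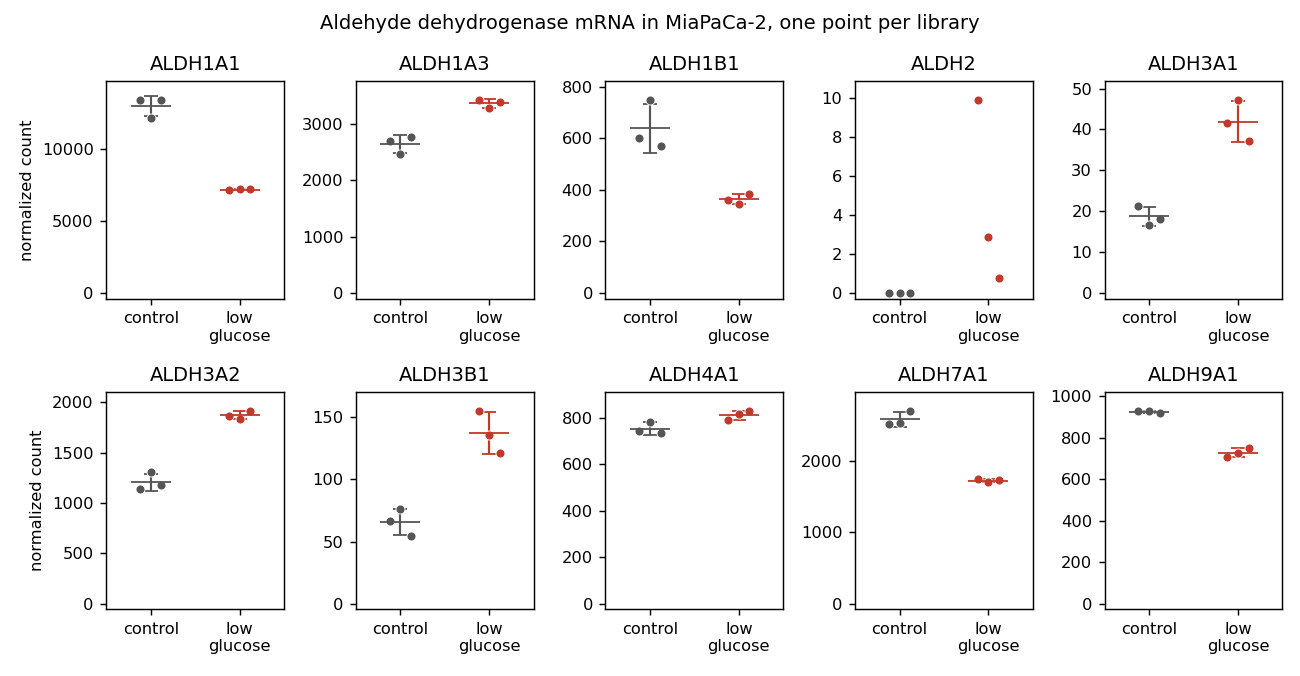
Normalized counts (vertical axis, linear, separate scale for each gene) of the 10 aldehyde dehydrogenases in the 3 control and 3 low-glucose libraries. Points are libraries, bars the mean and SD (none for ALDH2, which had 0 reads in every control library); the 2 conditions do not overlap in any of the 10 panels.

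The promoters of the retinaldehyde enzymes ALDH1A1 and ALDH1A3 are shown because these 2 genes, paralogs with the same substrate, went in opposite directions. The bases run from 100 to 21 before the annotated start, 5′ to 3′ on the gene's strand, and come from RefSeq on GRCh38.p14 (hg38). Capitals mark the CCAAT box, an element bound by the factor NF-Y.
ALDH1A1, chr9:72953074-72953153, minus strand: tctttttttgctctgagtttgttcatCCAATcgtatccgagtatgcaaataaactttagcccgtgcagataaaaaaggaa
ALDH1A3, chr15:100879731-100879810, plus strand: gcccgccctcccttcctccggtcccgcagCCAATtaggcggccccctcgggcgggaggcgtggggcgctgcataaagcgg

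Both carry the box at nearly the same place, at -74 to -70 in ALDH1A1 and at -71 to -67 in ALDH1A3, in very different surroundings. Over the 250 bases before the start, ALDH1A1 had a GC content of 38.4% with 6 CpG sites, and 10.1% of the 35116 promoter windows in the table were lower. ALDH1A3 had 82.4% with 38 CpG sites, and 98.6% of windows were lower. RefSeq windows were found for 8 of the 10 members, all but ALDH2 and ALDH3A1 (11 windows, since some genes have several starts), and the box, read on both strands, was in 5 of the 11, as in 32.0% of all windows. The other 3 are printed with 10 bases on each side. In ALDH1B1 the box reads on the opposite strand, as ATTGG.
ALDH1B1, chr9:38392666-38392690, plus strand: gcggagcctcATTGGccgctgagcc
ALDH3A2, chr17:19648711-19648735, plus strand: gccgcccaggCCAATaggggtgagg
ALDH7A1, chr5:126595268-126595292, minus strand: tcgggtctgcCCAATgggttctccc

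The 5 genes with a box moved both ways, since ALDH1A3 and ALDH3A2 were higher and ALDH1A1, ALDH1B1 and ALDH7A1 lower. The E-box CACGTG was in 1 of the 11 windows, that of the downstream start of ALDH3A2 at -47 to -42, and in 6.34% of all windows. The letters TGACNNNGC (core of the antioxidant response element), TNGCGTG (xenobiotic response element), TGATGNAA (ATF4 composite element) and TATAA were in 0 of the 11, and in 10.9%, 4.52%, 3.14% and 18.9% of all windows, respectively. A match is a match of letters in this stretch, and binding was not measured.

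ALDH1A1, a cytosolic enzyme that makes retinoic acid, was by far the most abundant member. Its gene is on chr9:72900671-73080442 (minus strand, Gencode v44, hg38), and the MANE Select transcript, the reference form of each gene, has 13 exons. Normalized counts were 13397, 12164 and 13389 in control and 7151, 7220.3 and 7199 in low glucose. All 3 low-glucose libraries were far under the lowest control library and lay within a narrow band. The mean fell from 12983 ± 709.9 to 7190.1 ± 35.5 (SD, n = 3), to 0.554 of control, with a log2 fold change of -0.85 (SE 0.0778, limma adjusted p = 2.21e-06). Of all genes tested, 4.38% had a larger fall.

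ALDH1A3, the second retinaldehyde enzyme of the line (chr15:100877714-100916626, plus strand), rose. Normalized counts were 2697, 2461 and 2769 in control and 3419, 3274 and 3395 in low glucose. The groups were separate, but the rise was modest. The means were 2642 ± 161 and 3363 ± 77.3 (SD, n = 3), which gave a log2 fold change of 0.35 (SE 0.0747, limma adjusted p = 0.00254), and 31.3% of all genes tested had a larger rise. Without a trend in the variance model the limma adjusted p was 0.0501. ALDH1A3-AS1, a long noncoding RNA on the opposite strand, shares 1715 bp, or 32.1%, of the exon length of ALDH1A3. It was counted at 69.3% of the value of ALDH1A3 and had a log2 fold change of 0.36 (SE 0.0739, limma adjusted p = 0.00202). The library kit keeps the strand, but the strand setting of the counting is not given in the sources used here, so reads of the 2 genes cannot be told apart.

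Within each library, ALDH1A1 had 4.97, 4.94 and 4.84 reads for each read of ALDH1A3 in control, and 2.09, 2.21 and 2.12 in low glucose. A ratio within a library does not depend on the scaling between libraries. The mean ratio fell from 4.92 ± 0.0700 to 2.14 ± 0.0589 (SD, n = 3). The exact permutation test gave a two-sided p of 0.1, the smallest that 3 against 3 libraries allow. Because the 2 genes moved in opposite directions without overlap, the ratio had to separate too, and this p adds no evidence.

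ALDH1A2, the remaining retinaldehyde enzyme of the subfamily and no member of the 10, had 1 to 5 control reads and 7 to 10 low-glucose reads per library (log2 fold change of 1.25, SE 0.524, limma adjusted p = 0.0843). The partners of these enzymes were read from a list of 19 genes of retinoid metabolism and signalling, of which 13 were tested. Of these 13, 0 were higher and 3 lower, and the median log2 fold change was -0.30. For this list and those below, the shares over all genes tested were 14.7% higher and 16.2% lower. RDH10, the retinol dehydrogenase that supplies retinaldehyde, fell from 129 ± 26.6 to 56.6 ± 6.84 normalized counts (SD, n = 3; log2 fold change of -1.16, SE 0.181, limma adjusted p = 0.000222). The nuclear receptors RARG (-0.44, limma adjusted p = 0.0233) and RXRA (-0.38, limma adjusted p = 0.00585) were the other 2. The retinoic acid target CYP26A1 and the carrier CRABP1 had 0 reads in every library. Their paralogs CYP26B1 (19 to 30 control reads and 22 to 23 low-glucose reads per library, log2 fold change of -0.30) and CRABP2 (3 to 11 and 5 to 8 reads) did not pass.

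ALDH1B1 is a mitochondrial enzyme that acts on acetaldehyde and other short aldehydes, whose MANE Select transcript has 2 exons (chr9:38392702-38398661, plus strand). Normalized counts were 600.9, 747 and 568 in control and 360.6, 346 and 384 in low glucose. The control library of 10126218 reads stood above the other two, and all 3 low-glucose libraries were lower than every control library. The mean fell from 639 ± 95.1 to 364 ± 19.1 (SD, n = 3), a log2 fold change of -0.80 (SE 0.106, limma adjusted p = 5.86e-05). ALDH1B1 and ALDH1A1, the 2 members with the strongest falls, lie 34.5 Mb apart on chromosome 9.

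ALDH2, the main mitochondrial acetaldehyde enzyme of liver (chr12:111766887-111817532, plus strand), was almost undetected. It had 0 reads in each control library, and 10, 3 and 1 reads in low glucose. Low glucose replicate 2 held 10 of the 14 reads. The log2 fold change was 2.07 (SE 0.744, limma adjusted p = 0.0470) on values with 1 added, and the mean of low glucose was at least 1.36-fold higher than a floor of 3 reads per control library. That bound rests on low glucose replicate 2, since the mean of the other 2 low-glucose libraries, 1.82 normalized counts, is under the floor of 3.31. Without low glucose replicate 2 the limma adjusted p was 0.245, without replicate 1 it was 0.115, without the control library of 9741183 reads 0.0933, and without that of 10190154 reads 0.0633. At this depth no level in control could be measured.

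ALDH4A1, the mitochondrial enzyme that completes proline breakdown to glutamate (chr1:18871430-18902724, minus strand), changed least of the 10. Normalized counts were 743, 784 and 734 in control and 790.3, 815 and 829 in low glucose. The lowest low-glucose library was just above the highest control library. The log2 fold change was 0.11 (SE 0.0775, 95% interval -0.06 to 0.27, limma adjusted p = 0.329), so a rise of up to 0.27 is within the interval. With quantile normalization it was 0.23, with a limma adjusted p of 0.0322. Per read of ALDH1B1, ALDH4A1 had 1.19 ± 0.127 reads in control and 2.23 ± 0.104 in low glucose (SD, n = 3, exact permutation p = 0.1).

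In a list of 8 genes of proline and ornithine steps, 7 were tested, 1 was higher and 2 were lower, with a median of -0.09. PYCR1, which makes proline from the same intermediate that ALDH4A1 oxidizes, rose from 1754 ± 88.7 to 2827 ± 173 normalized counts (SD, n = 3; log2 fold change of 0.69, SE 0.0773, limma adjusted p = 1.38e-05). Its paralog PYCR3 (-0.46, limma adjusted p = 0.0138) and the ornithine carrier SLC25A15 (-0.40, limma adjusted p = 0.00342) fell. PRODH, the first enzyme of proline breakdown, did not pass, with 0 to 1 control reads and 2 to 6 low-glucose reads per library. Like ALDH2, PRODH entered the test, and so the list median, only through low glucose (means of 0.728 and 3.14 normalized counts).

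All 3 members of the ALDH3 subfamily were higher in low glucose. ALDH3A2, the microsomal fatty aldehyde dehydrogenase whose loss causes Sjögren-Larsson syndrome (chr17:19648136-19685760, plus strand), was the abundant one. Normalized counts were 1136, 1303 and 1175 in control and 1865, 1838 and 1914 in low glucose, with a wide gap between the groups. The mean rose 1.55-fold, from 1204 ± 87.5 to 1872 ± 38.4 (SD, n = 3), with a log2 fold change of 0.64 (SE 0.0774, limma adjusted p = 2.64e-05).

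ALDH3A1, the inducible cytosolic enzyme of cornea and stomach (chr17:19737984-19748943, minus strand), lies 52223 bp beyond the end of ALDH3A2 on the opposite strand. It had 19, 15 and 17 reads in control and 42, 49 and 49 in low glucose. Normalized counts were 21.3, 16.7 and 18.2 in control and 41.5, 47.1 and 37.1 in low glucose, so the groups were well separated at a low level. Its log2 fold change was 1.12 (SE 0.253, limma adjusted p = 0.00371). SLC47A2, a transporter gene on the minus strand (chr17:19678288-19718979) that overlaps the end of ALDH3A2 and reaches into the gap, had 3 to 10 control reads and 14 to 18 low-glucose reads per library (log2 fold change of 0.997, SE 0.437, limma adjusted p = 0.1). The long noncoding RNA ENSG00000264785, which shares 98 bp with ALDH3A1 on the other strand, had 4 to 8 and 14 to 19 reads. It was also higher (log2 fold change of 1.18, SE 0.410, limma adjusted p = 0.0413), at 35.4% of the value of ALDH3A1. Without the strand setting, reads of these 2 genes in the shared stretch cannot be told apart either.

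ALDH3B1, a membrane-bound enzyme for lipid-derived aldehydes (chr11:68008578-68029282, plus strand), had normalized counts of 66.1, 75.8 and 54.6 in control and 155, 136 and 121 in low glucose. Each low-glucose library was well above the highest control library. The mean rose 2.10-fold, from 65.5 ± 10.6 to 137 ± 17.0 (SD, n = 3), a log2 fold change of 1.06 (SE 0.168, limma adjusted p = 0.000251). ALDH3B2, its paralog and no member of the 10, had 1 read in 1 low-glucose library and 0 in the other 5.

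Genes of fatty aldehyde and sphingolipid steps around ALDH3A2 were read from a list of 12, of which 9 were tested. Of the 9, 3 were higher and 1 was lower, with a median of 0.00. The acid ceramidase ASAH1 (0.78, SE 0.125, limma adjusted p = 0.000279), the phytanic acid enzyme PHYH (0.73, SE 0.119, limma adjusted p = 0.000305) and the sphingosine phosphate lyase SGPL1 (0.36, SE 0.115, limma adjusted p = 0.0286) rose. The fatty acyl reductase FAR2 fell (-0.31, SE 0.104, limma adjusted p = 0.0348). SGPL1 and ALDH3A2 act in sequence in sphingolipid breakdown.

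ALDH3A1 is a classic target of the aryl hydrocarbon receptor in rodent liver. Of 10 genes of this receptor and its targets, 8 were tested, 2 were higher and 0 were lower, with a median of 0.18. The 2 were NFE2L2 (0.23, SE 0.0754, limma adjusted p = 0.0328), an antioxidant factor, and NQO1 (0.22, SE 0.0736, limma adjusted p = 0.0379). NQO1 is a target of that factor and also of the receptor. CYP1A1 (0.58, limma adjusted p = 0.302, 5 to 10 control reads and 12 to 16 low-glucose reads per library) did not pass. The same held for AHRR (1.02, limma adjusted p = 0.164, 1 to 4 and 6 to 13 reads). CYP1B1 (0.14, limma adjusted p = 0.512) and TIPARP (0.14, limma adjusted p = 0.325) did not pass, and neither did AHR itself (-0.33, limma adjusted p = 0.590) or ARNT (0.07, limma adjusted p = 0.598).

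ALDH7A1, which oxidizes an intermediate of lysine breakdown and betaine aldehyde (chr5:126531200-126595362, minus strand), was lower in low glucose. Normalized counts were 2508, 2529 and 2696 in control and 1741, 1699 and 1728 in low glucose. The low-glucose libraries were tightly grouped and far under control. The mean fell to 0.668 of control, from 2578 ± 103 to 1722 ± 21.4 (SD, n = 3), with a log2 fold change of -0.58 (SE 0.0714, limma adjusted p = 2.98e-05). Its processed pseudogene ALDH7A1P1 had at most 4 reads in any library, and the other 3 had 0.

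ALDH9A1, which oxidizes aminoaldehydes on the way to carnitine and from polyamines (chr1:165662216-165698562, minus strand), fell less. Normalized counts were 928, 929.6 and 919 in control and 707, 728 and 752 in low glucose. The control libraries differed by little, and the groups did not overlap. The mean fell to 0.788 of control, from 926 ± 5.72 to 729 ± 22.2 (SD, n = 3), a log2 fold change of -0.34 (SE 0.0760, limma adjusted p = 0.00315).

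The steps around these 2 enzymes were read from a list of 19 genes of lysine, choline, carnitine and amine metabolism, of which 17 were tested, 5 were higher and 2 were lower, with a median of 0.50. Spermidine/spermine acetyltransferase SAT1 rose from 566 ± 109 to 1436 ± 69.8 normalized counts (SD, n = 3; log2 fold change of 1.36, SE 0.112, limma adjusted p = 8.58e-07). Dimethylglycine dehydrogenase DMGDH, in choline breakdown, rose from 1 to 5 control reads to 16 to 21 low-glucose reads per library (2.25, SE 0.495, limma adjusted p = 0.00314). BHMT, which uses betaine, had 0 reads in every control library and 3 to 6 in each low-glucose library, so that, like ALDH2, it entered the test only through low glucose, and the count of higher genes is 4 without it. The other 2 that rose were the spermine oxidase SMOX (0.95, SE 0.0864, limma adjusted p = 2.08e-06) and AASS (0.74, SE 0.177, limma adjusted p = 0.00515), the first enzyme of lysine breakdown. The carnitine transporter SLC22A5 (-0.44, limma adjusted p = 0.0139) and DHTKD1 (-0.38, limma adjusted p = 0.00307), a later lysine enzyme, fell. CRYM (0 to 1 control reads and 1 to 4 low-glucose reads per library, not called) also entered the test only through low glucose. Without BHMT and CRYM the median of the list was the value of PAOX, 0.20.

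**Figure D2:**
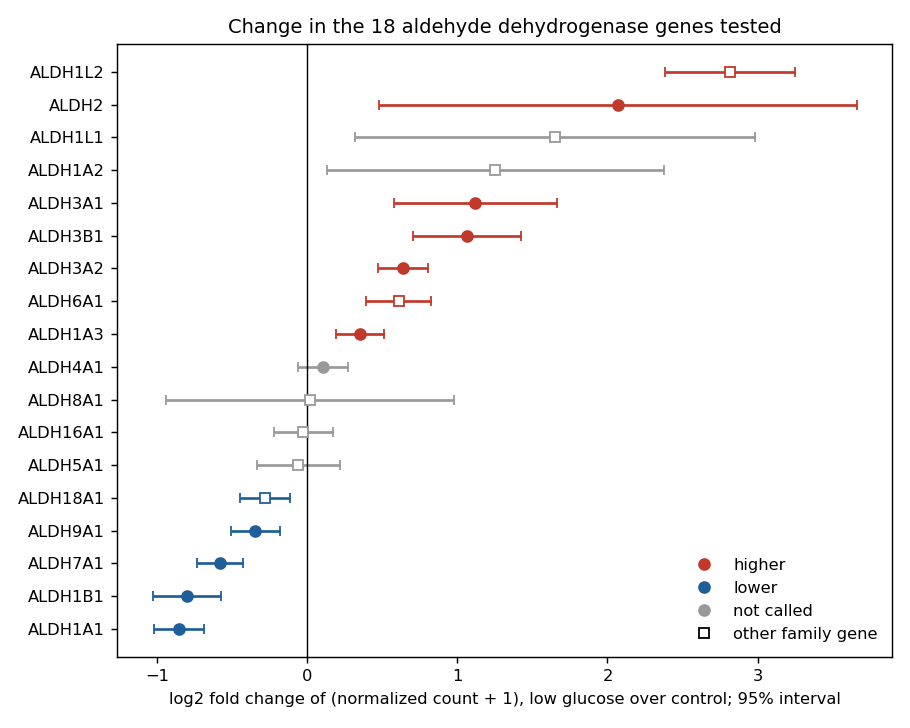
Log2 fold change of low glucose over control on values with 1 added, with 95% intervals from limma, for the 18 aldehyde dehydrogenase genes tested. Filled circles are the 10 members, open squares the other family genes, red higher, blue lower and grey not called; ALDH1L2 at 2.82 and ALDH1A1 at -0.85 mark the ends.

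The 9 other genes of the family were read beside the 10. Of these, 8 were tested, 2 were higher and 1 was lower. ALDH1L2, the mitochondrial 10-formyltetrahydrofolate dehydrogenase, which also yields NADPH, had the highest log2 fold change of the family on values with 1 added, from 23.1 ± 5.01 to 167 ± 19.2 normalized counts (SD, n = 3; log2 fold change of 2.82, SE 0.202, limma adjusted p = 2.57e-07). Of all genes tested, 0.227% had a larger rise. With a pseudocount of 0.1 (4.88 against 2.87) and in DESeq2 (4.46 against 2.85) the few reads of ALDH2 gave a higher value than ALDH1L2. On the other strand it shares 131 bp with WASHC4 and 145 bp with NOPCHAP1, which had log2 fold changes of 0.36 and -0.11. Its cytosolic paralog ALDH1L1 had 0 to 3 control reads and 5 to 13 low-glucose reads per library (1.65, SE 0.622, limma adjusted p = 0.0572). ALDH6A1, of valine breakdown, rose from 260 ± 25.4 to 397 ± 13.1 (SD, n = 3; 0.61, SE 0.102, limma adjusted p = 0.000398), and shares 670 bp with BBOF1 on the other strand. ALDH18A1, which makes the proline precursor, fell from 1569 ± 98.0 to 1294 ± 54.4 (SD, n = 3; -0.28, SE 0.0778, limma adjusted p = 0.0141). That call was lost in 3 of the 6 fits with 1 library left out, those without low glucose replicate 1, low glucose replicate 2 or the control library of 9741183 reads (limma adjusted p = 0.0764, 0.0814 and 0.0583). ALDH5A1, ALDH8A1 and ALDH16A1 had log2 fold changes of -0.06, 0.02 and -0.03, and their direction varied with the scaling.

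Among 18 other enzymes that oxidize or reduce aldehydes and alcohols, 12 were tested, 3 were higher and 1 was lower, with a median of 0.21. The reductases PTGR2 (0.88, SE 0.215, limma adjusted p = 0.00617), AKR1B1 (0.85, SE 0.138, limma adjusted p = 0.000311) and AKR1A1 (0.78, SE 0.117, limma adjusted p = 0.000163) rose, and the carbonyl reductase CBR3 fell (-0.88, SE 0.152, limma adjusted p = 0.000495). The classical alcohol dehydrogenases ADH1A, ADH1B, ADH1C, ADH4 and ADH7 had 0 reads, and ADH5, the glutathione-dependent formaldehyde enzyme, had a log2 fold change of -0.10 (limma adjusted p = 0.384).

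**Figure D3:**
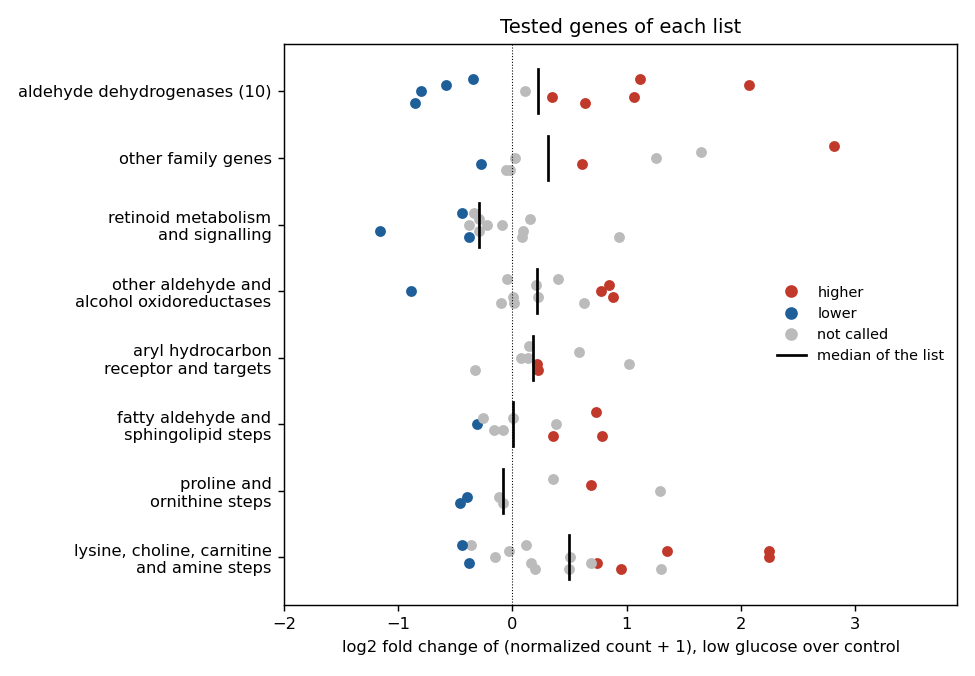
Log2 fold change of each tested gene (points, red higher, blue lower, grey not called) in the 10 aldehyde dehydrogenases, the other family genes and 6 lists of partner genes, with the median of each list as a black line. The medians run from -0.30 for retinoid metabolism and signalling to 0.50 for lysine, choline, carnitine and amine steps. The latter median was 0.20 without BHMT and CRYM, which entered the test only through low glucose. The median of all genes tested was 0.05.

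The 10 members together took up 2024, 1861 and 2047 reads per 1000000 in control, and 1552, 1544 and 1572 in low glucose. The mean fell from 1977 ± 101 to 1556 ± 14.3 (SD, n = 3, exact permutation p = 0.1, the smallest possible). The share of ALDH1A1 among these reads went from 59.5 ± 1.43% to 44.3 ± 0.467%. The share of ALDH1A3 went from 12.1 ± 0.355% to 20.7 ± 0.363% and that of ALDH3A2 from 5.53 ± 0.581% to 11.5 ± 0.149%, whereas that of ALDH7A1 went from 11.8 ± 0.410% to 10.6 ± 0.0949% (SD, n = 3 each). Without ALDH1A1, the sum over the other 9 was 8827 ± 118 normalized counts in control and 9045 ± 142 in low glucose (SD, n = 3, exact permutation p = 0.2). ALDH7A1 had 2.15 ± 0.185 reads per read of ALDH3A2 in control and 0.920 ± 0.0157 in low glucose (SD, n = 3, exact permutation p = 0.1), so the order of the 2 read counts was reversed in all 3 low-glucose libraries. Of the 11 such shares, ratios and sums computed, 10 gave an exact permutation p of 0.1, and 0.11 after Benjamini-Hochberg adjustment over the 11, so none can pass 0.05 with 3 libraries per condition. For the ratios of ALDH1A1 to ALDH1A3, ALDH4A1 to ALDH1B1 and ALDH7A1 to ALDH3A2, the paired genes moved in opposite directions without overlap. Their p of 0.1 was thus fixed by the values already given for each gene.

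Levels between genes were compared as reads per kilobase of annotated exon per 1000000 reads. In control, the mean level was 415 for ALDH1A1, 44.9 for ALDH1A3, 27.9 for ALDH9A1, 18.8 for ALDH4A1, 18.5 for ALDH1B1, 13.0 for ALDH7A1 and 7.11 for ALDH3A2. ALDH3B1 (0.895) and ALDH3A1 (0.438) were at the low end. ALDH4A1 and ALDH1B1 overlapped between libraries, and all other neighbours were separate. In low glucose the level was 243 for ALDH1A1, 60.4 for ALDH1A3, 23.2 for ALDH9A1, 21.4 for ALDH4A1, 11.7 for ALDH3A2, 11.2 for ALDH1B1, 9.21 for ALDH7A1, 1.99 for ALDH3B1 and 1.04 for ALDH3A1, and the neighbours ALDH3A2 and ALDH1B1 overlapped. ALDH3A2 thus stood above ALDH7A1 in low glucose and under it in control.

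The place of ALDH7A1 and ALDH3A2 depends on the length used. The annotated exons of ALDH7A1 add up to 17914 bp and those of ALDH3A2 to 15331 bp, but their MANE Select transcripts have 4765 and 3703 bp. Per kilobase of that transcript ALDH7A1 took the third place in control, at 49.0, and ALDH3A2 the third place in low glucose, at 48.5. ALDH1A1 and ALDH1A3 kept the top places by either length.

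**Figure D4:**
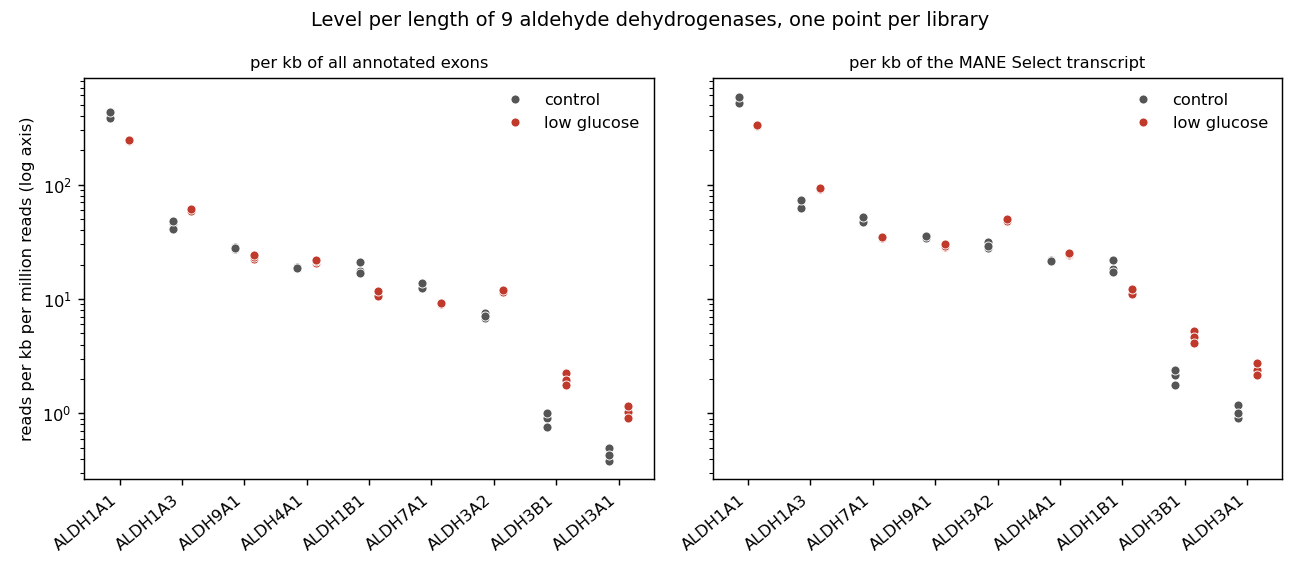
Reads per kilobase per 1000000 reads (log axis) of 9 members in each library, by the length of all annotated exons (left) or of the MANE Select transcript (right), ordered by the control mean. ALDH1A1 is above all others in both conditions (415 and 243 by all exons), the gap to ALDH1A3 is smaller in low glucose, and ALDH2 is left out because it had 0 reads in control.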

How the data were processed

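Strand-specific RNA-seq of 3 low-glucose and 3 control libraries was read from 1 table. Per the labels and methods, the authors mapped reads to hg38 with STAR (2.7.0e in the submitters' processing notes, which also name CASAVA, FastQC, Trim Galore and DESeq2). The paper's software list names RSEM too, but its use on this table, the annotation and the strand setting are not given in the sources used here. What the authors deposited is a signal, namely read counts per gene after division by a size factor for each library. In every library 100% of values were whole multiples of 1 read (tolerance 0.001 read), so reads were recovered. Identifiers were matched to Gencode v44 (99.4%).

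Genes with a mean of at least 1 (21101) were tested on log2(value + 1) with limma 3.58.1 in R 4.3.3 (lmFit, eBayes with trend), two-sided, with Benjamini-Hochberg adjustment over all of them and a threshold of 0.05. Fold changes on this scale understate the change of low genes. Replicates were described as independent, and each pair differed by more than sampling noise (chi-square per gene of 1.90 to 18.9, the control libraries of 10126218 and 10190154 reads the most). Shares and ratios were compared with two-sided exact permutation tests. Alternatives were scaling by library size, by TMM factors or by quantiles, a mean of 5 or no filter, a pseudocount of 0.1, no variance trend, TPM, edgeR 4.0.16 and DESeq2 1.42.0 on the recovered reads, a minimum change of 1 on the log2 scale, and fits without each library. The MANE Select length and the comparison with genes of a mean of at least 500 were added after the data were seen. The promoter search and the shares, ratios and sums with their permutation tests were also not part of the initial plan. The limma, edgeR and DESeq2 steps were tested on simulated data.

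The members and lists were chosen with earlier results of these data known. Named were all 10 members, the 9 other family genes, genes that share exon sequence with them, and of each list the called genes with the largest rise and fall, up to 4 in all where more were called; genes named beyond this rule (uncalled list genes, the remaining called genes of the list of lysine to amine steps, pseudogenes and SLC47A2) were chosen after their values were seen. Promoter sequences came from RefSeq (GRCh38.p14). Figures used Python 3.11.15 and matplotlib 3.10.9.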

Additional observations from a re-analysis of the deposited data

How the results depend on the processing

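All 10 members kept their direction in every alternative that gave a value, and 7 of them (ALDH1A1, ALDH1B1, ALDH3A1, ALDH3A2, ALDH3B1, ALDH7A1 and ALDH9A1) also kept their call in all 16 fits that changed the scaling, filter, pseudocount, variance model, tool or libraries. Without a variance trend, 3 members were higher and 4 lower, with 2099 of all genes higher and 1991 lower, ALDH1A3 had 0.35 (limma adjusted p = 0.0501) and ALDH2 2.07. ALDH2 also lost its call with quantile normalization (1.61), a pseudocount of 0.1 (4.88) and TPM (0.17), and its value ranged from 1.39 to 2.70 with 1 library left out. ALDH4A1 gained a call with quantile normalization (0.23). With a minimum change of 1 on the log2 scale, 3 members were higher (ALDH2, ALDH3A1 and ALDH3B1) and 0 lower, 1 other family gene was higher and 0 lower, and over all genes 1094 were higher and 298 lower. The single lower call among the other family genes, ALDH18A1, became 0 with library size scaling, quantile normalization and no variance trend, and 0 to 1 with 1 library left out. Over all genes, 2038 were higher with TPM and 1921 to 3489 with 1 library left out (1921, 1973 and 2018 without low glucose replicate 1, replicate 2 and the library of 13733477 reads). The direction reversed, near 0, for ALDH5A1 (0.0228 with library size scaling, -0.168 to 0.0119 with 1 library left out), ALDH8A1 (-0.28 with quantile normalization, -0.0199 with TPM, -0.00538 with DESeq2, and -0.16 to 0.24 with 1 library left out) and ALDH16A1 (0.0553 and 0.0760 with library size scaling and quantile normalization, and -0.0889 to 0.0376 with 1 library left out). By MANE Select length, places in the order of level moved in control to 3 (ALDH7A1), 4 (ALDH9A1), 5 (ALDH3A2), 6 (ALDH4A1) and 7 (ALDH1B1), and in low glucose to 3 (ALDH3A2), 4 (ALDH7A1), 5 (ALDH9A1), 6 (ALDH4A1) and 7 (ALDH1B1). The cause was not tested for any of these. No scaling moved the median of all genes with a mean of at least 20 by over 0.1. Single members moved more with quantile normalization, such as ALDH7A1 (from -0.58 to -0.38), ALDH3A2 (from 0.64 to 0.83) and ALDH3A1 (from 1.12 to 0.85). No paired analysis was possible because among the 6 libraries 4 have no replicate number. With 3 libraries per condition an exact permutation p cannot go below 0.1, and ALDH2, ALDH3A1, ALDH1A2 and ALDH1L1 rest on under 50 reads per library.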
